A study of Rattus norvegicus with 8 samples.

Results

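Exosomal RNA from rat serum was examined for 6 miRNAs of 2 chromosomal clusters that are known from smooth muscle and fibroblasts: rno-miR-143-3p and rno-miR-145-5p, and rno-miR-199a-3p, rno-miR-199a-5p, rno-miR-214-3p and rno-miR-214-5p, written below without the species prefix. The members are defined by name, with no threshold on a measured value, and are 6 of the 719 rat miRNAs on the array. Serum came from specific pathogen-free male Wistar rats, with 4 samples from rats with acid reflux esophagitis on day 21 after its induction, the chronic phase, and 4 from sham-operated control rats. Reflux was produced by surgery that narrowed the outlet of the stomach and tied off the forestomach border, and the model uses no transgene. No age is given for either group, and the labels give no day for the controls. Exosomes were precipitated from serum with Exoquick, a polymer reagent, so the RNA is that of the precipitate and its cells of origin are not known. Neither the labels nor the methods say that each serum was drawn from a different animal, and the spread behind the p-values may therefore be technical. Samples carry the replicate numbers 5, 8, 9 and 10 for reflux esophagitis and 1, 2, 3 and 4 for controls.

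The microRNAs are small RNAs that pair through their seed, bases 2 to 8, with target mRNAs and lower their output. In mice, miR-143 and miR-145 are made from 1 long non-coding transcript and maintain the contractile state of vascular and visceral smooth muscle. Also in mice, miR-199a and miR-214 are made from 1 transcript on the strand opposite to a dynamin gene and are expressed in mesenchymal cells such as fibroblasts. The esophageal wall holds both smooth and striated muscle and connective tissue, and vessels and other organs also express these miRNAs.

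The mature sequences of the 6 members, from RefSeq (build GRCr8), are shown because they carry the seeds, which stand in capitals.
miR-143-3p: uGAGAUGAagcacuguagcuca
miR-145-5p: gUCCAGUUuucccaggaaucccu
miR-199a-3p: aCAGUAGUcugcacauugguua
miR-199a-5p: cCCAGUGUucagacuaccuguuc
miR-214-3p: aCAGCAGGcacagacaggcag
miR-214-5p: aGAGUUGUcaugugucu
All 6 matched by name, they have 6 different seeds, and none of the 693 mature rat miRNA names in the table shares a seed with any of them. miR-143-3p lies at chr18:57371373-57371394 and miR-145-5p at chr18:57370033-57370055, both on the minus strand. Their hairpins are 1278 bases apart, inside Carmn, a long non-coding RNA gene. miR-199a-5p and miR-199a-3p are the 2 arms of the Mir199a2 hairpin, at chr13:77116255-77116277 and chr13:77116294-77116315 on the plus strand. The hairpin of miR-214 follows 5310 bases later, and both lie within the bounds of Dnm3, a dynamin gene. The miR-214 hairpin, at chr13:77121645-77121752, is printed with the named miR-214-5p and miR-214-3p sequences in capitals, since 1 was measured clearly and the other was not.
Mir214: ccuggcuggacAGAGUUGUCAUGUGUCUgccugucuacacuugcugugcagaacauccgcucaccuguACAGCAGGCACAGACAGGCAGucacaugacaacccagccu
On the opposite strand the same stretch gives miR-3120, at chr13:77121672-77121692.

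Each miRNA is read by 2 probes of 10 spots each, so by 20 spots on an array. The probes are complementary to the 3′ end of the miRNA and differ from each other by 1 base, shown in capitals. They are given for the 2 members of the chromosome 18 cluster, of which 1 was detected everywhere and the other nowhere.
miR-143-3p, longer probe: tgagctacagtgcttcatC
miR-143-3p, shorter probe: tgagctacagtgcttcat
miR-145-5p, longer probe: agggattcctgggA
miR-145-5p, shorter probe: agggattcctggg
The longer probe covers bases 4 to 22 of miR-143-3p and bases 10 to 23 of miR-145-5p. No probe target of a member occurs in another mature rat miRNA of the table. Probes differ in length and base composition, so signals were compared between samples for 1 miRNA and not between miRNAs.

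The total signal of a miRNA, a linear and background-subtracted intensity, was divided by the 75th percentile of its array, taken over the 144 miRNAs detected on all 8 arrays, and put on the log2 scale. A value of 0 thus equals the percentile. The percentile was 1052, 1080, 239 and 442 in reflux esophagitis replicates 5, 8, 9 and 10, and 584, 494, 558 and 915 in control replicates 1, 2, 3 and 4. Replicate 9 stood apart, with 144 detected miRNAs against 197 to 245 in the other samples with reflux esophagitis and 212 to 232 in controls. All arrays were on 1 slide and in 1 scan, but reflux esophagitis occupied slide row 2 and controls slide row 1, so the row and the group cannot be told apart.

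Of the 6 members, 3 were detected on all 8 arrays, miR-143-3p, miR-199a-3p and miR-214-3p, and entered the test of reflux esophagitis against controls. Of these 3, 0 rose and 0 fell at an adjusted p under 0.05 (limma, Benjamini-Hochberg adjustment over 192 tested miRNAs), where 1.04% of all tested miRNAs passed, all of them lower. At an unadjusted p under 0.05, 0 of the 3 passed, where 5 of the tested miRNAs were lower and 0 higher. None of the 3 separated the groups without overlap, against 1.56% of the tested miRNAs. Their log2 fold changes were -0.43, -0.18 and -0.34, with a median of -0.34, beside a median of -0.29 over all tested miRNAs. Over the 144 miRNAs detected on all 8 arrays, as the 3 members were, the median was -0.19. All 3 were below 0, as were 156 of the tested miRNAs, but under the scaling of the methods all 3 were above 0, at 1.27, 1.52 and 1.35 beside a median of 1.39. The paper labelled a fixed mass of RNA for the arrays, and each array was scaled to its own percentile. The fold changes are thus relative to the other miRNAs of an array. The amount in serum and the number of vesicles were not measured.

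miR-143-3p, which in cultured smooth muscle cells acts on regulators of proliferation such as ELK1, had a total signal of 323, 312, 34.9 and 109 in reflux esophagitis replicates 5, 8, 9 and 10. In control replicates 1, 2, 3 and 4 it had 173, 236, 181 and 206. Before scaling, the samples with reflux esophagitis thus lay on both sides of all controls, 2 above and 2 below. Scaled, the log2 signals were -1.70, -1.79, -2.78 and -2.03 in reflux esophagitis and -1.75, -1.06, -1.62 and -2.15 in controls. All 4 samples with reflux esophagitis were below the control mean, but only replicate 9 was below every control. The mean was -2.07 ± 0.49 in reflux esophagitis and -1.65 ± 0.45 in controls (SD, n = 4 each). This gave a log2 fold change of -0.43 with a standard error of 0.36 (limma adjusted p = 0.912, two-sided exact permutation p = 0.314). Its 95% confidence interval was from -1.25 to 0.40, so a level 2.38-fold lower or 1.32-fold higher was not outside it. Without reflux esophagitis replicate 9 the log2 fold change was -0.079.

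**Figure D1:**
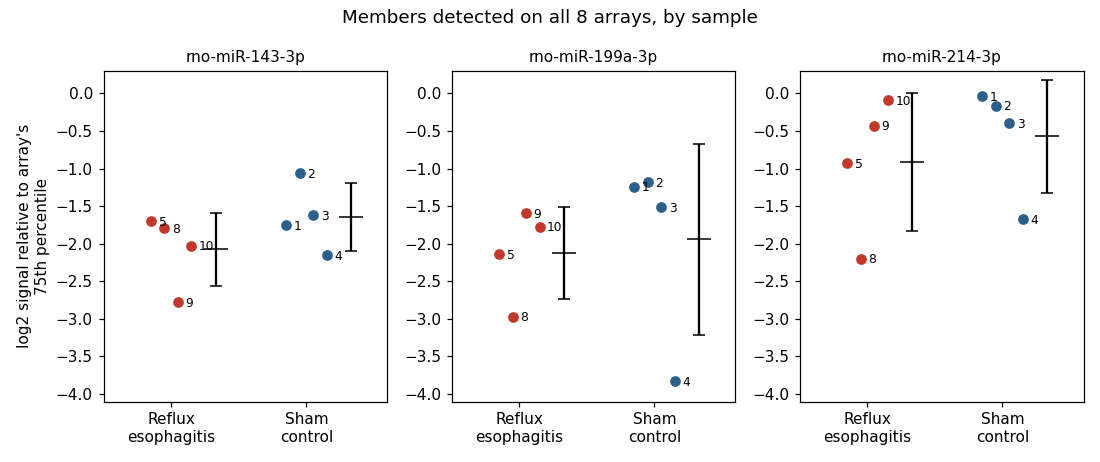
The log2 signal of each member detected on all 8 arrays, relative to the 75th percentile of its array, in reflux esophagitis (red, left) and sham controls (blue, right). Points are samples with their replicate numbers, and bars give the mean and SD (n = 4 each). The groups overlap in all 3 panels, with reflux esophagitis replicate 8 at -2.20 for miR-214-3p and control replicate 4 at -3.83 for miR-199a-3p as the lowest points of their panels.

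The reading of miR-143-3p in replicate 9 rests on fewer spots. There 10 of its 20 spots were well above background, against 16 to 20 on the other arrays, and only the longer probe entered the total, at 34.9, while the shorter one, at 7.19, was left out by the software. On the other 7 arrays the total was the sum of both probes. Adding both probes in replicate 9 gives 42.1 and would raise its log2 signal by 0.27. With the sum of both probes on every array, a setting chosen after seeing the data, the log2 fold change of miR-143-3p was -0.36 (adjusted p = 0.991 from limma).

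miR-199a-3p, which in human cells targets MTOR and MET, had total signals of 238, 138, 79.2 and 129 in reflux esophagitis replicates 5, 8, 9 and 10. In control replicates 1, 2, 3 and 4 they were 247, 217, 195 and 64.4. Control replicate 4 was thus lower than every other sample, although its array had the highest percentile of the controls. Scaled, the log2 signals were -2.14, -2.97, -1.59 and -1.78 in reflux esophagitis and -1.24, -1.19, -1.52 and -3.83 in controls. Every sample with reflux esophagitis lay below 3 of the controls and above the other one. The means were -2.12 ± 0.61 in reflux esophagitis and -1.94 ± 1.27 in controls (SD, n = 4 each). The log2 fold change was -0.18 (standard error 0.63, 95% confidence interval from -1.60 to 1.25, adjusted p = 0.941 from limma, exact permutation p = 0.743). Without reflux esophagitis replicate 8 it was 0.10, and without control replicate 4 it was -0.81 (adjusted p = 0.691 from limma).

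miR-214-3p, the 3p arm of the Mir214 hairpin, had total signals of 551, 235, 178 and 414 in reflux esophagitis replicates 5, 8, 9 and 10. In control replicates 1, 2, 3 and 4 they were 567, 441, 423 and 287. The log2 signals were -0.93, -2.20, -0.43 and -0.095 in reflux esophagitis and -0.041, -0.16, -0.40 and -1.67 in controls. On this scale, replicate 8 was the lowest sample with reflux esophagitis and replicate 4 the lowest control, the same 2 samples as for miR-199a-3p. The means were -0.91 ± 0.92 in reflux esophagitis and -0.57 ± 0.75 in controls (SD, n = 4 each). The log2 fold change was -0.34 (standard error 0.55, 95% confidence interval from -1.58 to 0.90, adjusted p = 0.927 from limma, exact permutation p = 0.543). It was 0.084 without reflux esophagitis replicate 8 and -0.71 without control replicate 4. With array quality weights the log2 fold changes of miR-143-3p, miR-199a-3p and miR-214-3p were -0.12, -0.72 and -0.84 (adjusted p = 0.752, 0.317 and 0.193 from limma), nearer to 0 for the first and farther from it for the others. The smallest p that exact permutation of 4 samples against 4 allows is 0.0286.

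The software's error of a total signal, which covers the reading of 1 array and not extraction, labelling or hybridization, was 8.56% to 12.8% of it for miR-143-3p, 7.61% to 9.33% for miR-199a-3p and 7.31% to 7.70% for miR-214-3p. Over the 8 arrays the scaled signals spanned 3.28-fold for miR-143-3p, 6.25-fold for miR-199a-3p and 4.46-fold for miR-214-3p. The SD of the log2 signal over the 8 arrays was 0.93 for miR-199a-3p and 0.80 for miR-214-3p, beside a median of 0.55 over the 144 miRNAs detected on all arrays, and 0.49 for miR-143-3p. Of the 144 miRNAs, 124 had a smaller SD than miR-199a-3p, 107 a smaller one than miR-214-3p and 60 a smaller one than miR-143-3p.

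Both probes of a detected member gave the same picture. They overlap almost fully and read the same RNA on the same array, so their likeness is no independent support. The brighter probe held between 82.6% and 86.4% of the signal of both probes for miR-143-3p, between 65.8% and 68.5% for miR-199a-3p, and between 61.5% and 63.9% for miR-214-3p. The log2 differences between reflux esophagitis and controls were -0.35 and -0.40 for the longer and shorter probe of miR-143-3p, -0.16 and -0.22 for those of miR-199a-3p, and -0.34 and -0.35 for those of miR-214-3p. The low value of miR-199a-3p in control replicate 4 was thus read by both probes, at 42.5 and 21.9, with all 20 spots well above background.

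**Figure D2:**
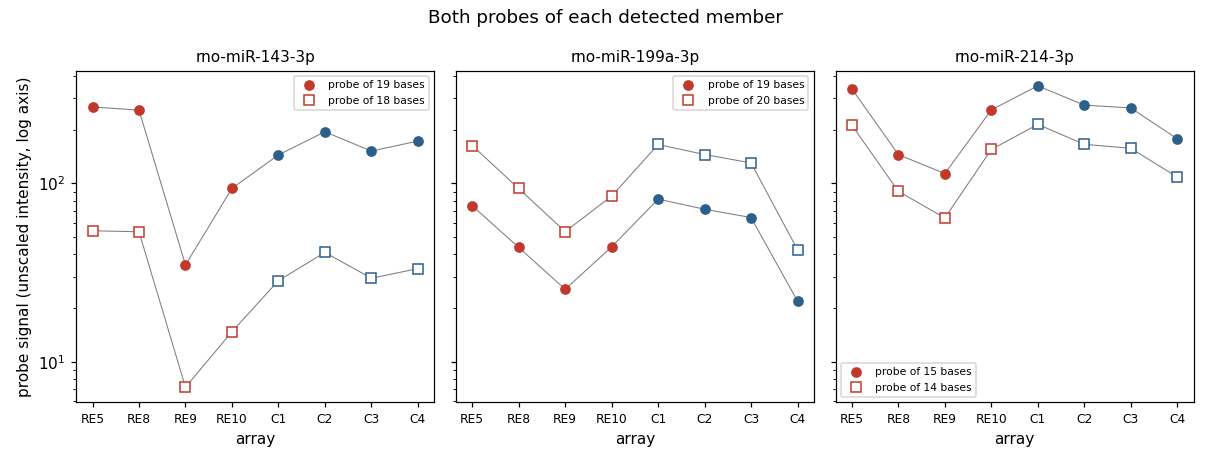
The unscaled signal of the longer and shorter probe of each detected member on the 8 arrays (log axis), with reflux esophagitis (RE) in red and sham controls (C) in blue, and grey lines joining the arrays of 1 probe. The 2 probes run nearly parallel in each panel, with replicate 9 lowest for miR-143-3p and miR-214-3p and control replicate 4 lowest for miR-199a-3p.

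miR-199a-3p and miR-214-3p, whose hairpins lie 5310 bases apart, varied together more closely than either did with miR-143-3p. As a measure of likeness, each log2 profile was centred on its own mean and the root mean square difference between 2 profiles was taken over the 8 arrays. It was 0.40 between miR-199a-3p and miR-214-3p, 0.86 between miR-143-3p and miR-199a-3p, and 0.82 between miR-143-3p and miR-214-3p. Among the 143 other miRNAs detected on all arrays, miR-214-3p ranked 3 in likeness to miR-199a-3p, and miR-199a-3p ranked 17 in likeness to miR-214-3p. miR-143-3p ranked 74 and 84 in likeness to them. The profiles share their 8 arrays and their scaling, and these values are a description with no test.

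The difference between miR-214-3p and miR-199a-3p within an array does not depend on how arrays are scaled. On the log2 scale it was 1.21, 0.78, 1.17 and 1.68 in reflux esophagitis replicates 5, 8, 9 and 10. In control replicates 1, 2, 3 and 4 it was 1.20, 1.02, 1.12 and 2.15. Control replicate 4 was above every other sample, and the other 3 controls lay between 1.02 and 1.20. The means were 1.21 ± 0.37 in reflux esophagitis and 1.37 ± 0.53 in controls (SD, n = 4 each), a difference of -0.17 (two-sided exact permutation test, p = 0.686). The same test gave an interval from -1.37 to 0.65, of at least 95% since its p-values move in steps. Without control replicate 4 the difference was 0.095. This was the only 1 of 3 planned pairs that could be computed, as the others needed miR-145-5p or miR-199a-5p.

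Set against the chromosome 13 members, miR-143-3p split the samples with reflux esophagitis into 2 pairs. Its log2 difference from miR-214-3p was -0.77 and 0.40 in replicates 5 and 8 but -2.35 and -1.93 in replicates 9 and 10, and from -1.71 to -0.48 in controls. Replicates 9 and 10 were thus below every control, and replicate 8 was above every control. From miR-199a-3p it differed by 0.44, 1.18, -1.18 and -0.25 in replicates 5, 8, 9 and 10 and by -0.51 to 1.68 in controls. The pairs are those of the array percentiles given above, 1052 and 1080 against 239 and 442, and the part of array brightness in this split was not tested. These 2 differences were chosen after their values were seen and were given no test.

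**Figure D3:**
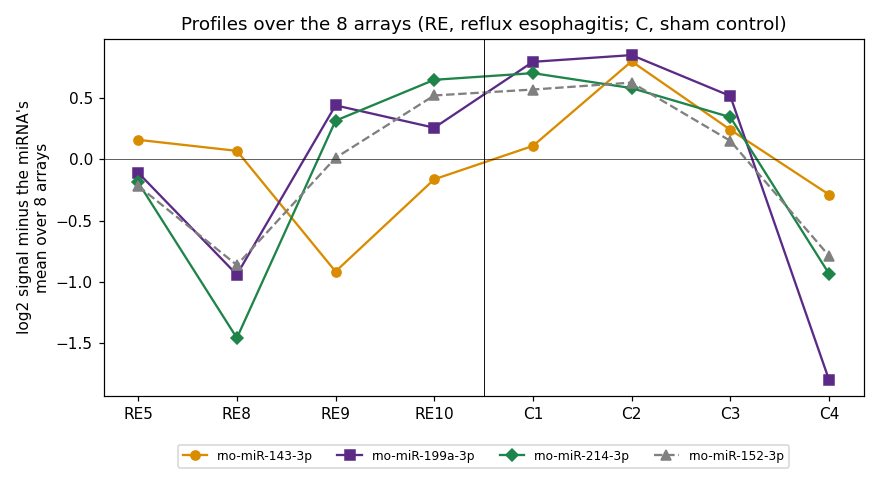
The log2 signal of the 3 detected members and of miR-152-3p on the 8 arrays (RE, reflux esophagitis, left; C, sham control, right), each minus its own mean over the arrays. miR-199a-3p, miR-214-3p and miR-152-3p dip together in reflux esophagitis replicate 8 and control replicate 4, while miR-143-3p is lowest in replicate 9.

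The miRNAs most like a member, named as the 3 nearest outside the members, differed between the clusters. Nearest to miR-143-3p were miR-10a-5p, from a HOX gene cluster, at a root mean square difference of 0.29, miR-146a-5p, a miRNA induced by NF-kB, at 0.30, and miR-22-3p at 0.32, where the median over 141 miRNAs was 0.65. Nearest to miR-199a-3p were miR-6216 and miR-30c-2-3p, both at 0.38, and miR-152-3p at 0.44 (median 0.86). Nearest to miR-214-3p were miR-152-3p at 0.26, miR-466b-5p at 0.26 and miR-483-3p, from the Igf2 gene, at 0.31 (median 0.72). miR-152-3p, which in several cell types acts on the DNA methyltransferase DNMT1, was thus near both chromosome 13 members. It had log2 signals of -3.56, -4.21, -3.33 and -2.83 in reflux esophagitis replicates 5, 8, 9 and 10 and -2.78, -2.72, -3.20 and -4.13 in control replicates 1, 2, 3 and 4. It changed by -0.28 on the log2 scale, with a standard error of 0.43 (limma adjusted p = 0.927).

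After scaling, reflux esophagitis replicate 8 and control replicate 4 were lower than their groups for both chromosome 13 members. Their arrays had the highest percentiles of their groups, 1080 and 915. Before scaling, control replicate 4 was the lowest control for both, but replicate 8 was not the lowest of its group. Its total signal was 138 for miR-199a-3p, against 79.2 and 129 in replicates 9 and 10. For miR-214-3p it was 235, against 178 in replicate 9. The log2 signal of reflux esophagitis replicate 8 minus the mean of the other samples of its group was -1.14 for miR-199a-3p, where 43 of the 144 miRNAs were lower, and -1.71 for miR-214-3p, where 13 were lower. The median over the 144 miRNAs was -0.27, and miR-143-3p stood at 0.37, above its group. For control replicate 4 minus the other controls it was -2.51 for miR-199a-3p, where 1 of the 144 miRNAs was lower, and -1.47 for miR-214-3p, where 14 were lower. There the median was -0.35, and miR-143-3p stood at -0.67. In the same 2 samples, the median shift of the other smooth muscle and fibroblast miRNAs described below was 0.22 in reflux esophagitis replicate 8 and -0.23 in control replicate 4. Their shifts ran from -0.97 to 0.85 and from -1.23 to 0.47, with miR-152-3p lowest in both. The median shift of red blood cell miRNAs was 0.61 in reflux esophagitis replicate 8 and 0.54 in control replicate 4. Their shifts ran from 0.065 to 0.77 and from 0.071 to 0.92, with miR-451-5p, their main marker, highest in both. The median shift of leukocyte miRNAs was 0.23 and 0.17, but they did not move as 1. Their shifts ran from -0.52 for miR-150-5p to 0.70 for miR-142-3p in reflux esophagitis replicate 8. In control replicate 4 they ran from -0.17 for miR-142-3p to 0.54 for miR-342-3p. On the platelet and endothelial list, miR-223-3p was shifted by 0.998 and 0.739 and miR-126a-3p, the endothelial one, by -0.81 and -0.58. miR-223-3p is not particular to platelets, and the paper links miR-223 to hematopoietic differentiation and immune function. The parts of array brightness and of these cells in the low scaled values of miR-199a-3p and miR-214-3p were not tested.

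The other 3 members were at background. miR-145-5p, which in mice restrains KLF4 and KLF5 in smooth muscle, was detected on 0 arrays of reflux esophagitis and 0 of controls. None of its 160 spots was well above background, and its spots averaged -0.55, -0.84, -1.42 and -2.83 in reflux esophagitis replicates 5, 8, 9 and 10 and 0.20, 1.02, -0.54 and 0.58 in control replicates 1, 2, 3 and 4. The faintest miRNA called detected on an array had a signal of 3.29 to 4.60, which no probe of miR-145-5p reached on any array. miR-143-3p, whose hairpin lies 1278 bases from that of miR-145-5p, was detected on 4 arrays of each group. The probes of miR-145-5p are 13 and 14 bases long, against 18 and 19 for miR-143-3p, and the part of probe length in this contrast was not tested.

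miR-199a-5p, which in human lung fibroblasts targets caveolin-1, was detected on 1 array, reflux esophagitis replicate 5, at a total signal of 7.66 that came from its longer probe alone and with 1 of 20 spots well above background. The longer probe read 7.66, 3.07, 0.45 and 3.94 in reflux esophagitis replicates 5, 8, 9 and 10 and 5.40, 4.76, 4.36 and 1.15 in control replicates 1, 2, 3 and 4. The readings of control replicates 1, 2 and 3 were above the faintest signal called detected on those arrays, 3.78, 3.29 and 3.80, but the software did not call miR-199a-5p detected there. The shorter probe stayed between -1.43 and 0.60 on all arrays. The 3 highest readings of the longer probe were in samples where miR-199a-3p had its 3 highest unscaled signals, and reflux esophagitis replicate 9 and control replicate 4 were lowest for both arms, but the readings are too near background for a fold. miR-214-5p was detected on 0 arrays, and 1 of its 160 spots was well above background. Its spots averaged between -1.65 and 1.68 in reflux esophagitis and between -0.0086 and 5.46 in controls, the highest in control replicate 1, where its probes read 3.87 and 3.45 beside a faintest detected signal of 3.78. For the Mir214 hairpin printed above, the signal thus came from miR-214-3p, detected on 8 arrays. The sequence named miR-214-5p was not distinguished from background on any of them. Its probes read only its own capitals. The lowercase bases between the 2 capital stretches were read by no probe of a member, so no comparison of the 2 arms follows.

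**Figure D4:**
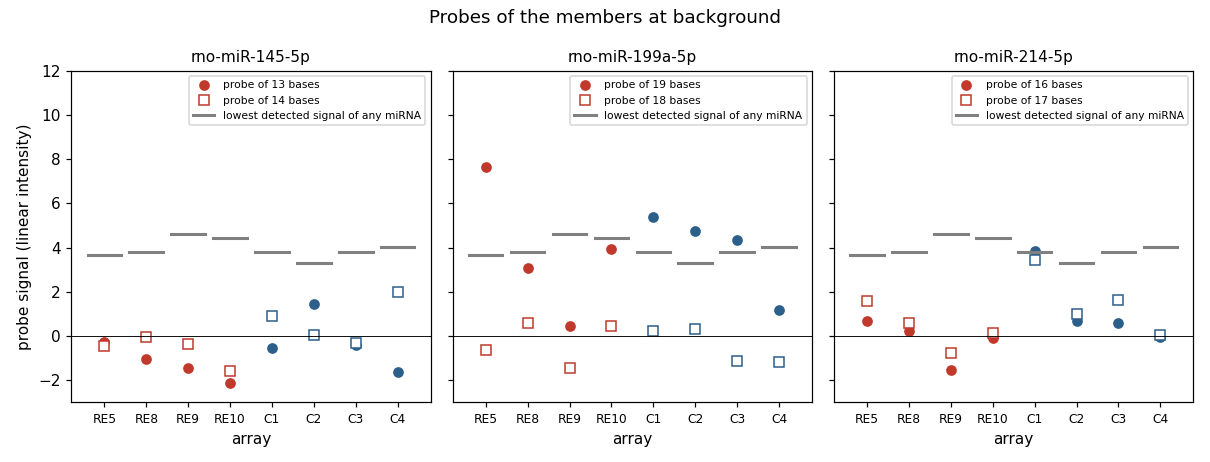
The signal of the 2 probes of each of the 3 members at background on the 8 arrays (linear intensity), with reflux esophagitis (RE) in red and sham controls (C) in blue. Grey bars mark the lowest signal of any miRNA called detected on the same array. miR-145-5p stays below the bars on every array. The longer probe of miR-199a-5p is above them in reflux esophagitis replicate 5, at 7.66, and in control replicates 1, 2 and 3, at 5.40, 4.76 and 4.36. The shorter probe of miR-214-5p is above the bar in control replicate 1, at 3.87 beside 3.78.

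The other arms and the neighbour on the opposite strand, miR-143-5p, miR-145-3p and miR-3120, were detected on 0 of 8 arrays each. Of 19 further miRNAs known from smooth muscle or fibroblasts, all on the array, 14 were detected on all arrays and 17 were tested. Of these 17, 0 rose and 0 fell, 13 had a log2 fold change below 0 and 4 above it, and the median was -0.11, beside -0.29 for all tested miRNAs. The smallest p-values were those of miR-133a-3p, a miRNA of striated muscle that smooth muscle also expresses, miR-140-3p and miR-26a-5p. miR-133a-3p was detected on 3 arrays of reflux esophagitis and 4 of controls (adjusted p = 0.870 from limma). The log2 fold change of miR-140-3p was -0.47 ± 0.32 and that of miR-26a-5p 0.51 ± 0.36 (± standard error, limma adjusted p = 0.912 for both). miR-21-5p, which rises in activated fibroblasts, had 0.30 (standard error 0.38), and miR-29a-3p, miR-29b-3p and miR-29c-3p, which restrain collagen genes, had -0.10, 0.39 and -0.073. The paper reports miR-29a-3p as upregulated in its microarray analysis, which scaled by the percentile of all measurements. The cause of this contrast was not tested.

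**Figure D5:**
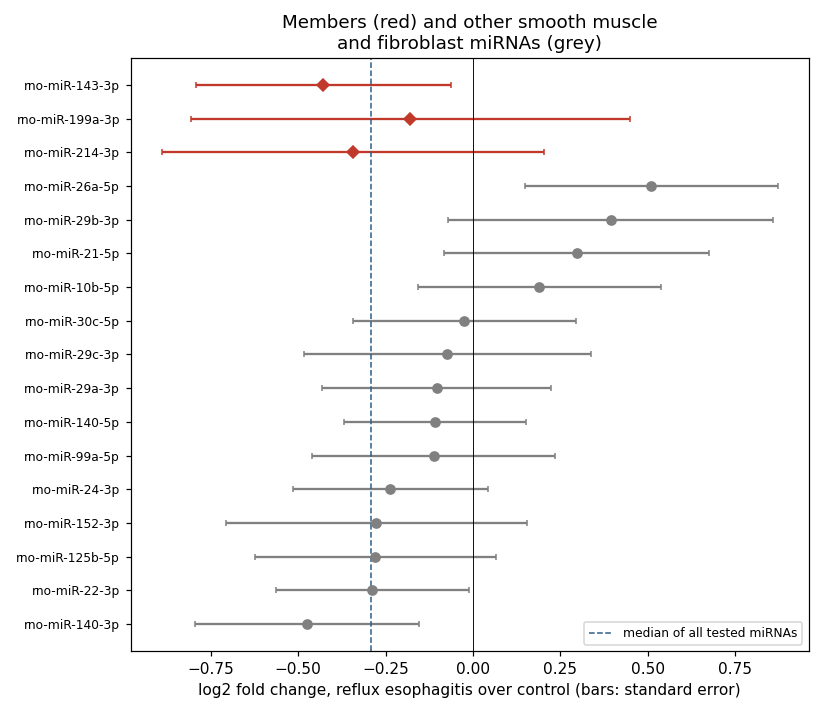
The log2 fold change of reflux esophagitis over control for the 3 tested members (red) and the 14 other smooth muscle and fibroblast miRNAs detected on all arrays (grey), with standard errors as bars. The members lie at -0.43, -0.18 and -0.34, near the dashed line at -0.29, the median of all tested miRNAs. Those include miRNAs undetected on some arrays, and the median over the 144 detected on all 8 arrays was -0.19.

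Markers of other cells did not pass the test, except 1. Of 4 striated muscle miRNAs tested, all had a log2 fold change below 0 and 1 fell, miR-208a-3p, from a cardiac myosin gene. It was detected on 1 array of reflux esophagitis and 4 of controls (adjusted p = 0.0307 from limma). It entered the test through the controls alone, and the arrays without detection stand at the lower limit of the scaled signal. The filter to miRNAs detected on all 8 arrays leaves it out, and 0 miRNAs passed there. The summed scaled signal of the 4 striated muscle miRNAs was 0.54 to 2.65 times the percentile in reflux esophagitis and 1.68 to 2.87 times in controls. Of 4 red blood cell miRNAs on the array, all detected on all 8 arrays, 0 passed, with summed signals of 13.5 to 27.9 in reflux esophagitis and 16.5 to 31.8 in controls. The 4 leukocyte miRNAs had 2.30 to 5.21 against 2.73 to 3.40, and the 4 platelet and endothelial ones 3.22 to 6.81 against 2.86 to 5.36, with 0 passing in each list. Of 3 liver miRNAs, 2 were tested and 0 passed, with 0.32 to 0.38 against 0.37 to 1.13. Of 5 epithelial miRNAs, 3, including miR-205 of squamous epithelium, were detected on no array. The median log2 fold change was 0.052 for red blood cell, -0.32 for platelet and endothelium, -0.091 for leukocyte, -1.40 for liver and -1.73 for striated muscle miRNAs, and the platelet, liver and striated muscle lists hold miRNAs that were undetected on some arrays and stand there at the lower limit of the scaled signal.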

How the data were processed

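The authors hybridized each RNA to the Agilent Rat miRNA Microarray and read the scans with Agilent feature extraction software 10.10.1.1. The deposited intensity values are linear, background-subtracted and not scaled between arrays, and the deposited value table equals the processed spot intensity on all 15095 features of each array. A miRNA the software did not detect stands at a total of 0.1.
Total signals were divided by the 75th percentile named in the results. Scaled values below 0.00350, the lowest among detected miRNAs, were set to it before log2. limma 3.58.1 in R 4.3.3 compared the groups over every miRNA that all 4 arrays of either group had detected, with Benjamini-Hochberg adjustment at 0.05, and beside it stand two-sided exact permutation tests (scipy 1.17.1, Python 3.11.15). Precision is set by the 8 arrays, and the median standard error of a log2 fold change was 0.48. The methods scale by the percentile of all miRNAs and use Welch's test or analysis of variance with Bonferroni correction, which were run as alternatives, as were other signals, background corrections, scalings, filters, floors, variance models and leaving out each array. The procedure was tested on simulated data.
The members, though defined by name alone, and the lists were chosen with earlier results of these data known. Named are the 6 members, the 3 nearest profiles of each detected member, the 3 list miRNAs of smallest p and markers whose groups did not overlap. The other arms and neighbour are named as a list that was detected nowhere. miR-21-5p, the miR-29 miRNAs, miR-451-5p, miR-223-3p, miR-126a-3p and miR-205 fall outside this rule and were chosen after their values were seen. Tables and figures used pandas 2.3.3 and matplotlib 3.10.9. Real-time RT-PCR and tissue data were not analysed here.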

Additional observations from a re-analysis of the deposited data

Results flagged for a closer look

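Control replicate 4 stood far from the other controls in miR-199a-3p, with a log2 signal of -3.83 where the nearest control was at -1.52. The gap was 0.874 of the range of the 4 controls, past Dixon's 95% limit. The within-array difference of miR-214-3p from miR-199a-3p also stood apart in that sample, at 2.15 where the nearest control was at 1.20 (0.844 of the range), and shares its miR-199a-3p value. Of 8 groups of 4 samples compared in this way, 2 were past the limit, and chance marks about 1 group in 20.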

How the results depend on the processing

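The tests of miR-143-3p, miR-199a-3p and miR-214-3p stayed past no threshold in 25 alternatives each, and the direction was kept in 24, 20 and 23 of them. Those that changed only the filter, the floor, the eBayes setting or the test left these fold changes as they were. The direction could not turn in them, and the counts overstate how far it was tried. With the scaling of the methods they turned to 1.27, 1.52 and 1.35, where the median of all tested miRNAs was 1.39, since the percentile over all miRNAs is the value of an undetected miRNA in reflux esophagitis replicate 9. miR-199a-3p also turned to 0.035 with median scaling. With 1 array left out, miR-143-3p ranged from -0.59 to -0.079, miR-199a-3p from -0.81 to 0.10 and miR-214-3p from -0.71 to 0.084. miR-199a-3p turned to 0.10 and miR-214-3p to 0.084 without reflux esophagitis replicate 8, and leaving out control replicate 1 or control replicate 2 turned miR-199a-3p to 0.055 or 0.074. The difference of miR-214-3p from miR-199a-3p ranged from -0.32 to 0.095 with 1 array left out and turned only without control replicate 4, at 0.095. Of all tested miRNAs, 2 passed. The number was 0 with the mean processed signal, the authors' value table, normexp, the methods' scaling, the filter to all 8 arrays and the sum of both probes, and 1 with no scaling, no filter, eBayes with trend and robust, and the methods' t-test and analysis of variance, with Benjamini-Hochberg or Bonferroni correction. It was 3 with quantile normalization and with array quality weights, 2 with median scaling and with no common floor, and 1 to 2 with 1 array left out. Beyond the cases where fewer miRNAs or arrays entered, the cause was not tested. No paired analysis was possible because the groups share no replicate numbers, and no slide or scan block because there was 1 of each. Signal near background limits miR-145-5p, miR-199a-5p and miR-214-5p.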
